A study of Rattus norvegicus with 6 samples.

Results

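Hepatic stellate cells and the matrix genes of scarring were described in rat liver by 10 genes fixed by name, all of which had 1 row each among the 25926 features of the table. The genes were Acta2, Tagln and Des of the contractile cytoskeleton, the receptor Pdgfrb, the growth factor Tgfb1, the matrix proteoglycans Dcn and Lum, and Timp1, Mmp2 and Lox of matrix turnover. Collagens were left out of these 10. RNA-seq of whole liver was compared between 3 control and 3 TPN animals. Every animal was of the Sprague-Dawley strain, with an age of 4 weeks in the labels. The controls received 0.9% saline and carried the disease label normal. The other group received total parenteral nutrition (TPN, feeding by infusion into a vein) for 7 days and was labelled PNALD, for liver disease associated with such feeding. The labels do not say how the control animals were fed, how long they received saline, or whether they had a catheter.

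Stellate cells lie between the sinusoidal endothelium and the hepatocytes and store vitamin A. After injury they can turn into myofibroblasts, which carry smooth muscle actin in stress fibres and deposit collagen-rich matrix. PDGF drives their growth through Pdgfrb, and TGF-beta drives matrix production. The net amount of matrix also depends on metalloproteinases such as Mmp2, on their inhibitor Timp1, and on Lox, which crosslinks collagen and elastin so that they resist breakdown.

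Serum response factor drives smooth muscle genes such as Acta2 through a motif called the CArG box, so the start regions of Acta2 and Des, the contractile genes with an entry, are shown to let their letters be compared. RefSeq's promoter table (GRCr8) held 5 of the 10 genes, namely Acta2, Des, Timp1, Tgfb1 and Lum. The 250 bases before the start of Acta2 (chr1:241172504-241172753, minus strand) and of Des (chr9:84299376-84299625, plus strand) read, 5′ to 3′ on the strand of the gene, with CArG-like boxes in capitals:
Acta2: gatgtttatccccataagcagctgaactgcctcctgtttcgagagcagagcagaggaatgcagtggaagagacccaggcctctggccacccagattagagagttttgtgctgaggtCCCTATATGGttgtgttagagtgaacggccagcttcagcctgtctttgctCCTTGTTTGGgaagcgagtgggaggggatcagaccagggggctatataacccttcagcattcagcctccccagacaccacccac
Des: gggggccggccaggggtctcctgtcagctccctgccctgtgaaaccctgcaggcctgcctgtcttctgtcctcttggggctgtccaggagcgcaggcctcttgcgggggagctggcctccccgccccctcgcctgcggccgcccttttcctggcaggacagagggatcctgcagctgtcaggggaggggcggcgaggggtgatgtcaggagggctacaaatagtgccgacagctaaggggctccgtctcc
A CArG-like box was taken as CC, 6 bases with at most 1 G or C among them, and GG, which reads the same way on both strands. Acta2 held 2, beginning 134 and 84 bases before the start, each with 1 G or C in its core. Tgfb1 held 1, beginning 104 bases before the start, and the windows of Des, Timp1 and Lum held no match. Of 33469 promoters of this length 8.08% held at least 1 such box and 0.693% at least 2, while 1.5% held a box with no G or C in its core and none of the 5 genes did.

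Each library reached 1 FPKM in 11129 to 11424 features, where FPKM is the number of fragments scaled to transcript length and library size. The depth of the libraries is unknown, because whole reads could not be recovered from small values. Defining hepatocyte genes were abundant in all 6 livers, with Alb between 12828 and 48388 FPKM. The acute-phase genes were highest in control 2 and TPN 1 within their groups, with 70708 and 128569 FPKM summed over the list. The other controls held 27528 and 28138, and the other TPN rats 62689 and 50642. Of 11362 features averaging 1 FPKM or more, limma's test across all features called 28, which is 0.246%, and 25 of these, 0.22% of the features tested, were lower in TPN.

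None of the 10 genes passed limma's test, and for 8 of them the control and TPN values overlapped. Mmp2 and Lox had lower values in every TPN rat than in every control rat. Dcn was the only one of the 7 tested genes whose log2 fold change was positive. The 7 genes averaging 1 FPKM or more entered the test. Des, Lum and Lox did not, and their intervals and p-values below come from the same fit on the 16361 features averaging 0.1 FPKM or more. At an unadjusted p under 0.05 there was 1 of the 7 tested genes, Mmp2, against 11.4% of all features tested. Over all 10 genes, 2 were lower and 0 higher in TPN without overlap between the groups, and the shares over those 16361 features were 9.69% lower and 7.15% higher. The median log2 fold change of the 7 tested genes was -0.21, beside 0.0065 over all features tested. That median ranged from -0.50 to 0.039 over the alternatives, so its sign is not settled. In whole liver, fewer cells of a type and less RNA in each cell cannot be told apart.

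**Figure D1:**
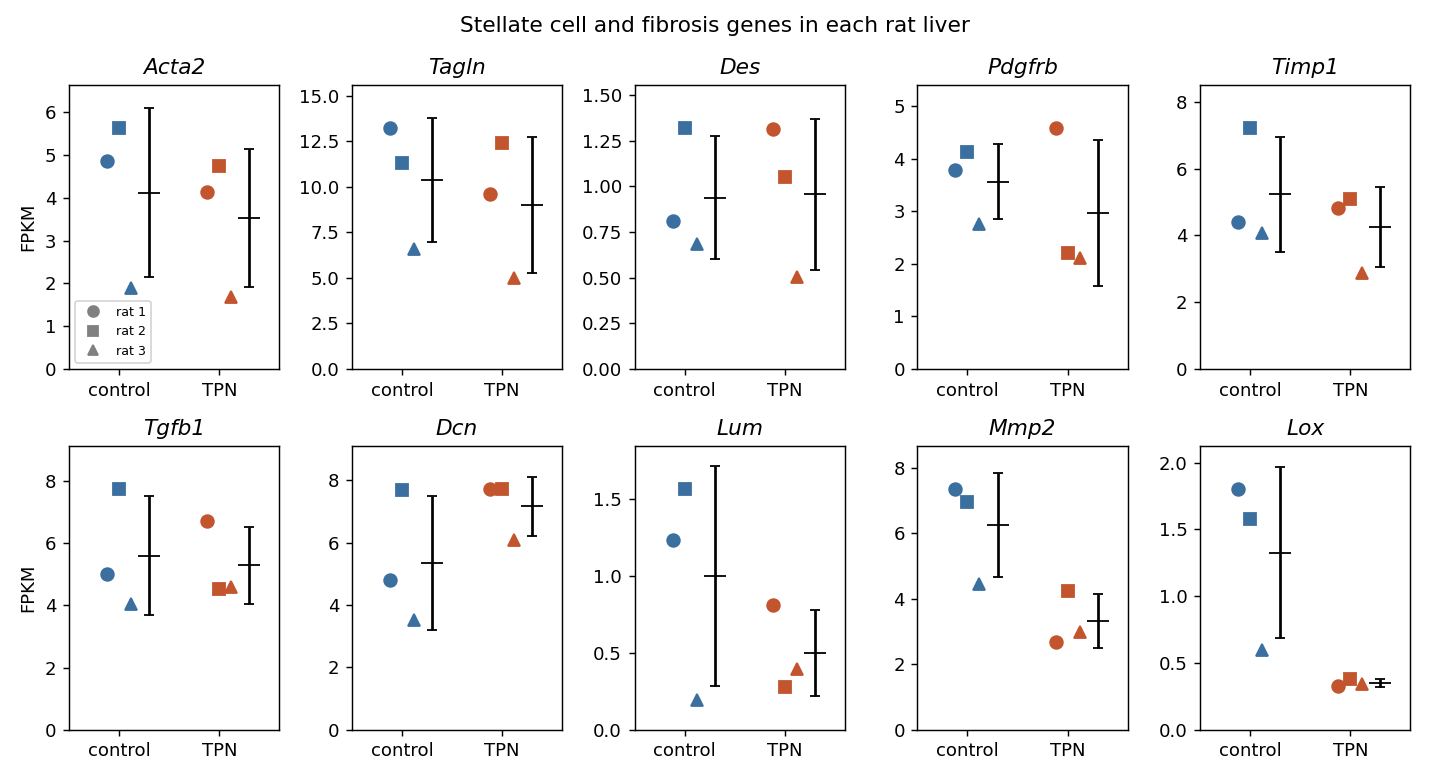
Values of the 10 genes in FPKM (y axis, from 0, with its own scale in each panel) in control and TPN livers. Each symbol is 1 rat, with the same shape for the same replicate number, and the bar beside each group is the mean ± SD (n = 3). Mmp2 and Lox do not overlap between groups, and control 3, the blue triangle, is the lowest control in every panel.

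Acta2, the smooth muscle actin that marks activated stellate cells and vascular smooth muscle, measured 4.86, 5.62 and 1.88 FPKM in control 1, 2 and 3 and 4.13, 4.74 and 1.69 in TPN 1, 2 and 3. Rat 3 was the lowest in both groups, and the groups overlapped nearly over their whole range. The mean was 4.12 ± 1.98 FPKM in the controls and 3.52 ± 1.62 in the TPN group (SD, n = 3). The log2 fold change on the scale of FPKM + 1 was -0.17 (95% interval -1.11 to 0.78, limma adjusted p = 0.922). It was -0.54 without control 3 and -0.50 with the acute-phase score, the mean log2(FPKM + 1) of acute-phase genes in each rat, as a covariate. That score was 8.32, 9.83 and 8.52 in the controls and 10.6, 9.40 and 9.45 in the TPN rats. It is thus partly tied to the group, so values with this covariate, here and below, estimate a different quantity. The sign for Acta2 turned without control 2 (0.064) or TPN 3 (0.17), so the data give no direction for Acta2. Its close relatives could share reads with it. Of these, Acta1 and Actc1 of striated muscle were listed at 0 in every library, while Actg2 of enteric smooth muscle measured 0.598 ± 0.456 FPKM in the controls and 0.513 ± 0.452 in the TPN group.

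Tagln, which encodes the actin-binding protein SM22-alpha, was the most abundant of the 10 and, like Acta2, had its lowest values in TPN 3 and control 3. It measured 13.2, 11.3 and 6.60 FPKM in the controls and 9.58, 12.4 and 4.99 in the TPN rats. The log2 fold change was -0.21 (95% interval -1.03 to 0.60, limma adjusted p = 0.872). It was 0.12 without TPN 3, -0.029 without control 1 and -0.48 without control 3. Des, the intermediate filament desmin of stellate and muscle cells, lay near 1 FPKM in both groups. Its values were 0.812, 1.32 and 0.682 FPKM in the controls and 1.31, 1.05 and 0.506 in the TPN rats. Its log2 fold change was 0.0053 (95% interval -0.47 to 0.48, limma adjusted p = 0.995), the smallest in size of the 10.

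Around these 3, a list of 20 smooth muscle and contractile genes had 13 tested, of which 10 had negative and 3 positive log2 fold changes (median -0.17). None passed limma's adjusted threshold and 4 were under an unadjusted p of 0.05, against 11.4% of all features tested. Without overlap, 3 were lower in TPN (Smtn, Mylk and Cald1) and 1 higher (Srf). Of all features tested 9.09% were lower and 8.02% higher in this way. Cald1, caldesmon, measured 75.0 ± 12.3 FPKM in the controls and 59.0 ± 2.21 in the TPN group (adjusted p = 0.540, limma). Smtn, the cytoskeletal protein smoothelin, measured 3.92 ± 0.980 FPKM in the controls and 2.17 ± 0.231 in the TPN group (adjusted p = 0.262, limma). Mylk, the kinase that phosphorylates myosin light chain for contraction, measured 14.4 ± 2.15 FPKM in the controls and 9.17 ± 1.54 in the TPN group (adjusted p = 0.295, limma). Myl9, a myosin light chain, measured 11.8 ± 3.22 and 6.99 ± 2.91 FPKM (adjusted p = 0.432, limma), and its groups overlapped. Srf, the serum response factor itself, went the other way, with 3.30 ± 0.331 FPKM in the controls and 4.85 ± 0.9746 in the TPN group (adjusted p = 0.389, limma).

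Pdgfrb, the receptor for PDGF-B on stellate cells and pericytes, measured 3.79, 4.13 and 2.76 FPKM in the controls and 4.58, 2.21 and 2.12 in the TPN rats. TPN 1 held the highest value of all 6 livers, and the other TPN rats the 2 lowest. On the log2 scale the difference was -0.24 (95% interval -0.82 to 0.34, limma adjusted p = 0.773), and -0.51 without TPN 1 (adjusted p = 0.317, limma). It was -0.15 without control 2, -0.12 without TPN 2, -0.094 without TPN 3 and -0.37 without control 3. With the acute-phase score of each rat as a covariate it was -0.59 (unadjusted p = 0.0445, adjusted p = 0.478 by limma). The related receptor Pdgfra measured 3.27 ± 1.49 FPKM in the controls and 2.80 ± 0.515 in the TPN group. Of 7 PDGF ligands and receptors 3 were tested and all 3 were negative (median -0.15), with none past the adjusted or the unadjusted threshold and none without overlap. The ligand Pdgfb lay under 0.5 FPKM in every rat.

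Tgfb1, the main fibrogenic cytokine, is made by macrophages and stellate cells among others and is secreted in a latent form. It measured 5.0004, 7.75 and 4.06 FPKM in the controls and 6.73, 4.53 and 4.60 in the TPN rats. The highest value in each group came from control 2 and TPN 1, the rats with the highest acute-phase sums of their groups. The log2 fold change was -0.050 (95% interval -0.60 to 0.50, limma adjusted p = 0.964), and it was positive without control 2 (0.17), TPN 2 (0.033) or TPN 3 (0.025). With the acute-phase score as a covariate it was -0.45 (unadjusted p = 0.0454, adjusted p = 0.479 by limma). Among the ligands, latency proteins and activators of TGF-beta, 6 of 12 were tested, all 6 with negative values (median -0.047) and none past the adjusted or the unadjusted threshold. Ltbp4, a latent TGF-beta binding protein, was at the head of these with 9.41 ± 2.83 FPKM in the controls and 7.28 ± 1.49 in the TPN group (adjusted p = 0.679, limma).

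All 15 receptors and Smads of the pathway were tested, with 9 positive and 6 negative (median 0.036). None passed the adjusted or the unadjusted threshold, and 1 was higher and 1 lower without overlap, against 8.02% and 9.09% of all features tested. The receptor Tgfbr1 measured 5.55 ± 0.172 FPKM in the controls and 7.93 ± 2.74 in the TPN group (adjusted p = 0.525, limma), and Ski, a repressor of Smad signalling, 7.19 ± 1.73 and 5.01 ± 0.367 FPKM (adjusted p = 0.438, limma). Of the known TGF-beta target genes 12 were tested, 8 negative and 4 positive (median -0.17), with 3 lower without overlap (9.09% of all features). None passed the adjusted threshold, and 1, Col1a2, was under an unadjusted p of 0.05, against 11.4% of all features. Col1a2, a chain of type I collagen, measured 10.1 ± 4.02 FPKM in the controls and 5.16 ± 1.09 in the TPN group (adjusted p = 0.338, limma). Fn1, fibronectin, which hepatocytes also secrete into plasma, measured 336 ± 53.6 FPKM in the controls and 499 ± 108 in the TPN group (adjusted p = 0.443, limma).

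Dcn encodes decorin, a small leucine-rich proteoglycan that binds collagen fibrils and TGF-beta and is made by quiescent stellate cells and fibroblasts. It measured 4.81, 7.71 and 3.51 FPKM in the controls and 7.73, 7.73 and 6.08 in the TPN rats. TPN 1 and TPN 2 lay just above the highest control, and TPN 3 lay between control 1 and control 2, so the groups overlapped. On the log2 scale the difference was 0.41 (95% interval -0.16 to 0.98, limma adjusted p = 0.574), with 0.67 without control 2 and 0.19 without control 3. With the acute-phase score as a covariate it was 0.088 (adjusted p = 0.907, limma). Lum, lumican of the same family, had its lowest value in a control rat. It measured 1.24, 1.57 and 0.194 FPKM in the controls and 0.814, 0.281 and 0.396 in the TPN rats, so the groups overlapped. Its log2 fold change was -0.36 (95% interval -1.04 to 0.32, limma adjusted p = 0.707). It was -0.14 without control 2 and -0.69 without control 3, and -0.72 with the acute-phase score as a covariate.

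In the family of small leucine-rich proteoglycans 5 of 14 were tested, 4 with negative and 1 with a positive value, the latter being Dcn (median -0.23). Without overlap 3 were lower in TPN, against 9.09% of all features. None passed the adjusted threshold, and 2 were under an unadjusted p of 0.05, against 11.4% of all features. Bgn, biglycan, measured 53.7 ± 10.5 FPKM in the controls and 33.1 ± 3.71 in the TPN group (adjusted p = 0.290, limma). Ogn, osteoglycin, measured 3.42 ± 1.16 FPKM in the controls and 1.88 ± 0.274 in the TPN group (adjusted p = 0.378, limma). Prelp measured 14.7 ± 2.42 FPKM in the controls and 12.3 ± 0.713 in the TPN group (adjusted p = 0.630, limma). In FPKM, Dcn was lower than Bgn in every rat.

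Timp1 encodes the secreted inhibitor of metalloproteinases that rises in activated stellate cells and also responds to inflammatory cytokines. It measured 4.41, 7.22 and 4.07 FPKM in the controls and 4.81, 5.09 and 2.86 in the TPN rats. Control 2 was the highest and TPN 3 the lowest of the 6 livers. The log2 fold change was -0.24 (95% interval -0.82 to 0.34, limma adjusted p = 0.773). It was -0.024 without control 2, -0.033 without TPN 3 and -0.37 without control 3. With the acute-phase score as a covariate it was -0.56 (adjusted p = 0.508, limma). TPN 1, which held the largest acute-phase sum, was not the highest TPN rat for Timp1. Among protease inhibitors and the plasmin system 11 of 14 were tested, 6 negative and 5 positive (median -0.24). None passed the adjusted threshold, and 2 were under an unadjusted p of 0.05, against 11.4% of all features. Without overlap 1 was higher and 1 lower in TPN, against 8.02% and 9.09% of all features. Plaur, the urokinase receptor, measured 1.10 ± 0.438 FPKM in the controls and 2.66 ± 1.24 in the TPN group (adjusted p = 0.331, limma), and Plat, the tissue plasminogen activator, 1.92 ± 0.760 and 0.884 ± 0.321 FPKM (adjusted p = 0.361, limma). A2m, an acute-phase inhibitor in the rat, had the widest spread, with 1.20, 84.1 and 6.69 FPKM in the controls and 1696, 80.8 and 35.2 in the TPN rats (log2 difference 3.92, adjusted p = 0.495, limma), and was singled out after its values were seen.

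Mmp2, a gelatinase made by stellate cells and fibroblasts, measured 7.35, 6.96 and 4.44 FPKM in the controls and 2.69, 4.25 and 2.99 in the TPN rats. Each TPN rat lay under each control rat, with a narrow gap between TPN 2 and control 3. The mean was 6.25 ± 1.58 FPKM in the controls and 3.31 ± 0.825 in the TPN group (SD, n = 3), a ratio of 1.89. On the log2 scale the difference was -0.74 (95% interval -1.25 to -0.24, unadjusted p = 0.00971, adjusted p = 0.274 by limma). The value kept its sign in all 20 alternatives that tested it, from -0.94 to -0.50, with limma adjusted p from 0.228 to 0.884. After median-ratio scaling control 3 (4.36) and TPN 2 (4.41) overlapped.

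Of 21 metalloproteinases and related proteases 7 were tested, 4 negative and 3 positive (median -0.30), with none past the adjusted threshold, 2 under an unadjusted p of 0.05 (11.4% of all features) and 2 lower without overlap (9.09%). Mmp15, a membrane-bound metalloproteinase, measured 7.46 ± 4.13 FPKM in the controls and 2.55 ± 1.10 in the TPN group (adjusted p = 0.383, limma), with overlap. Adamts2, which trims procollagen, measured 2.56 ± 0.593 FPKM in the controls and 1.74 ± 0.298 in the TPN group (adjusted p = 0.470, limma). Mmp14, which activates Mmp2 at the cell surface, had the opposite sign, with 23.0 ± 3.29 FPKM in the controls and 28.8 ± 5.15 in the TPN group (adjusted p = 0.603, limma).

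Lox, lysyl oxidase, measured 1.80, 1.58 and 0.597 FPKM in the controls and 0.326, 0.380 and 0.341 in the TPN rats. The 3 TPN values were close to each other and all under the lowest control. The mean was 1.32 ± 0.641 FPKM in the controls and 0.349 ± 0.0280 in the TPN group, a ratio of 3.80 between 2 low levels. On the scale of log2(FPKM + 1) the difference was -0.74 (95% interval -1.24 to -0.24, unadjusted p = 0.00910, adjusted p = 0.273 by limma). With a pseudocount of 0.1 it was -1.54 and with 0.01 it was -1.75, since adding 1 to such low values shrinks the difference. The groups did not overlap under any of the 3 other scalings either.

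Of the collagen crosslinking and processing enzymes 12 of 18 were tested, with 7 positive and 5 negative values (median 0.046). None passed the adjusted threshold, and 3 were under an unadjusted p of 0.05, against 11.4% of all features. Without overlap 4 were lower in TPN, against 9.09% of all features. Loxl2, a relative of Lox, measured 6.72 ± 1.63 FPKM in the controls and 3.25 ± 1.31 in the TPN group (adjusted p = 0.262, limma). Loxl4 measured 5.77 ± 0.344 FPKM in the controls and 2.62 ± 2.15 in the TPN group (adjusted p = 0.3501, limma), with 5.11 FPKM in TPN 1 and under 1.5 in the other TPN rats. Bmp1, the protease that cuts the carboxy-terminal propeptide from procollagen, measured 23.9 ± 3.01 and 14.0 ± 1.34 FPKM (adjusted p = 0.172, limma). Loxl1 lay under the filter, at 0.957 ± 0.0996 FPKM in the controls and 0.392 ± 0.214 in the TPN group. The hydroxylases Plod1, Plod3, P4ha1 and P4ha2 had positive log2 fold changes of 0.13, 0.20, 0.14 and 0.078. Plod2, another hydroxylase that lay under the filter, had -0.21, with 0.993 ± 0.375 FPKM in the controls and 0.727 ± 0.341 in the TPN group.

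**Figure D2:**
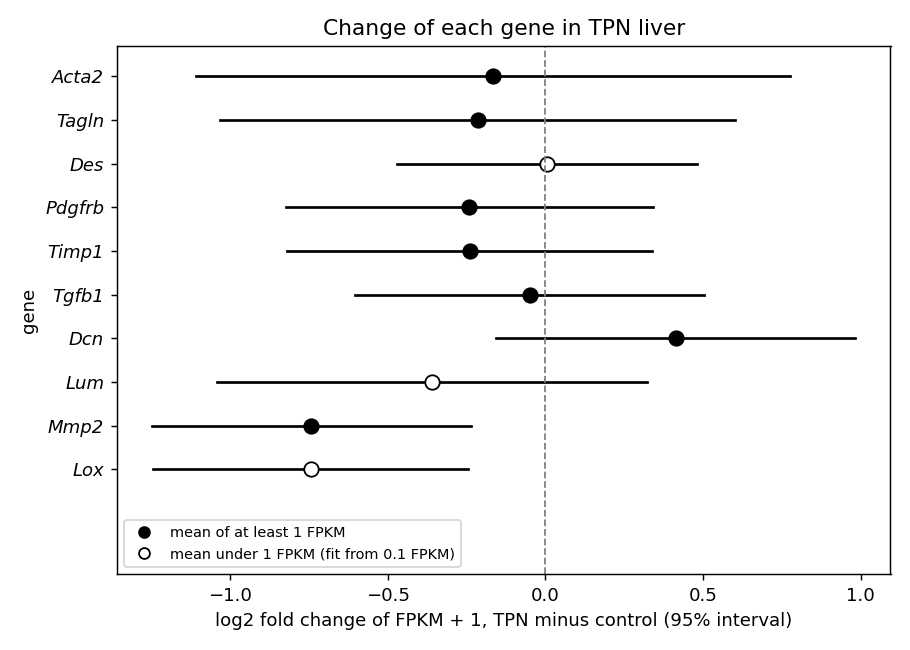
The log2 fold change of FPKM + 1, TPN minus control (x axis), for each of the 10 genes (y axis). Bars are 95% intervals from limma, and open circles mark Des, Lum and Lox, whose mean is under 1 FPKM and whose interval comes from the fit that starts at 0.1 FPKM. The intervals of Mmp2 and Lox lie below 0 before adjustment over all features, and those of the other 8 genes include 0.

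In order of level, with FPKM as a value per transcript length, the means over 6 rats were 9.68 for Tagln, 6.26 for Dcn, 5.44 for Tgfb1, 4.78 for Mmp2, 4.74 for Timp1, 3.82 for Acta2 and 3.26 for Pdgfrb. Des, Lox and Lum followed with 0.947, 0.837 and 0.748. The only step in this order seen in 6 of 6 rats was that from Pdgfrb down to Des. Tagln exceeded Dcn in 5 of 6 rats and Timp1 exceeded Acta2 in 5 of 6. Each of the other neighbouring pairs kept its order in 3 or 4 rats, so those neighbours were not separated beyond the spread.

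Control 3 was the lowest control for 10 of the 10 genes, where it was the lowest for 26.2% of all features tested. TPN 3 was the lowest TPN rat for 6 of the 10, against 17.6% of all features tested, and TPN 3 was the highest for none. Markers of other sinusoidal cells moved with this. Of 12 tested endothelial genes control 3 was the lowest control for 12 and TPN 3 the lowest TPN rat for 7. Their summed FPKM were 161, 187 and 120.1 in the controls and 179, 172 and 149.8 in the TPN rats. Of 12 tested Kupffer and macrophage genes control 3 was the lowest control for 9 and TPN 3 the lowest TPN rat for 9. Their part in the result was not tested. Without both rats numbered 3, the log2 fold change was -0.89 for Mmp2 and 0.29 for Dcn.

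Over the 6 livers, 43 of the 45 pairs among the 10 genes had a positive Pearson's r of log2(FPKM + 1), with a median of 0.59. The points share a library, and no test was made. Both groups enter each r, as does control 3, the lowest control for all 10 genes. Neither a share nor a median over pairs of other features was computed. Acta2 and Tagln went together (r = 0.95), and Des lay close to Acta2 (r = 0.82) and to Timp1 (r = 0.88). Mmp2 and Lox formed the other close pair (r = 0.95). Tgfb1, Pdgfrb and Lum had r of 0.79 to 0.81 with each other. Dcn stood apart from Mmp2 (r = -0.20) and Lox (r = -0.17), the only negative pairs.

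**Figure D3:**
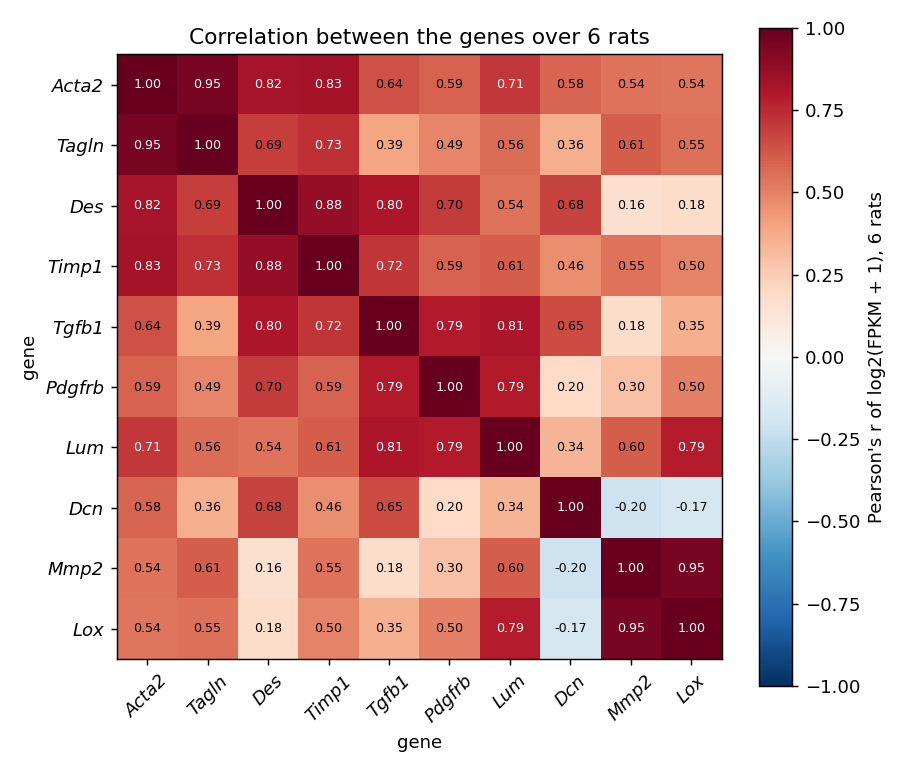
Pearson's r of log2(FPKM + 1) over 6 rats for each pair of the 10 genes (both axes), from blue (negative) to red (positive). Acta2 with Tagln and Mmp2 with Lox each reach 0.95, and Dcn with Mmp2 or Lox is below 0.

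Among 6368 named features averaging 5 FPKM or more, the pattern over 6 rats most like that of Mmp2 was that of Col3a1, a chain of type III collagen (r = 0.98), followed by Fstl1 (r = 0.98). The nearest to Lox were Tspan7 (r = 0.99) and Gypc (r = 0.98). Cnp was the nearest to both Acta2 (r = 0.98) and Tagln (r = 0.97), followed by C1qa for Acta2 (r = 0.97) and Dapk2 for Tagln (r = 0.96). For Timp1 they were Cd300le (r = 0.99) and Ramp1 (r = 0.98), and for Dcn Folr2 (r = 0.98) and Pla2g15 (r = 0.97). The nearest were Vsir and H3f3c for Tgfb1 (each r = 0.98), Hps1 (r = 0.98) and Rup2 (r = 0.97) for Pdgfrb, Serpinc1 (r = 0.99) and Limd2 (r = 0.97) for Des, and Aifm2 and P2rx7 for Lum (each r = 0.99). These r describe the closest of many candidates over few points.

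The stellate marker list, which also holds Acta2, Tagln, Pdgfrb, Des and Dcn, had values of both signs. Of its 20 genes 14 were tested, 9 negative and 5 positive (median -0.14). None passed the adjusted threshold, and 1, Lrat, was under an unadjusted p of 0.05, against 11.4% of all features. Lrat, the enzyme that esterifies vitamin A for storage, was lower without overlap, with 15.5, 11.5 and 13.7 FPKM in the controls and 2.68, 5.24 and 5.86 in the TPN rats (log2 fold change -1.42, SE 0.25, limma adjusted p = 0.0882). Reln, reelin of stellate cells, measured 5.21 ± 0.622 FPKM in the controls and 4.37 ± 0.649 in the TPN group (adjusted p = 0.664, limma). Hand2, a transcription factor of stellate cells, measured 1.98 ± 0.241 FPKM in the controls and 2.07 ± 0.277 in the TPN group. Hgf, the hepatocyte growth factor that stellate cells release, measured 6.06 ± 1.87 and 8.88 ± 2.01 FPKM (adjusted p = 0.468, limma). Of markers known for stellate cells and pericytes, Reln, Lrat, Hand2 and Rgs5 lay above 1 FPKM in each rat. Gfap lay under 1.1 FPKM in each rat, and Ntrk2, Nes and Cspg4 had means under 0.2 FPKM in both groups.

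None of the collagens or other matrix genes passed limma's adjusted threshold, and most had negative values, where 49.1% of all features tested did. Of 14 tested collagens 13 had negative log2 fold changes (median -0.55) and 7 were lower without overlap, against 9.09% of all features. At an unadjusted p under 0.05 there were 7, against 11.4% of all features. Col3a1 measured 109 ± 26.8 FPKM in the controls and 64.0 ± 11.7 in the TPN group (adjusted p = 0.325, limma). Of 17 tested other matrix glycoproteins 13 were negative (median -0.34) and 7 lower without overlap, with 8 under an unadjusted p of 0.05. Control 3 was the lowest control for 12 of the 14 collagens and 14 of the 17 glycoproteins. Eln, elastin, a substrate of Lox, measured 9.87 ± 3.54 and 3.74 ± 0.380 FPKM (adjusted p = 0.157, limma), and Fbn1, fibrillin of elastic fibres, 3.49 ± 0.886 and 1.71 ± 0.410 FPKM (adjusted p = 0.248, limma).

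**Figure D4:**
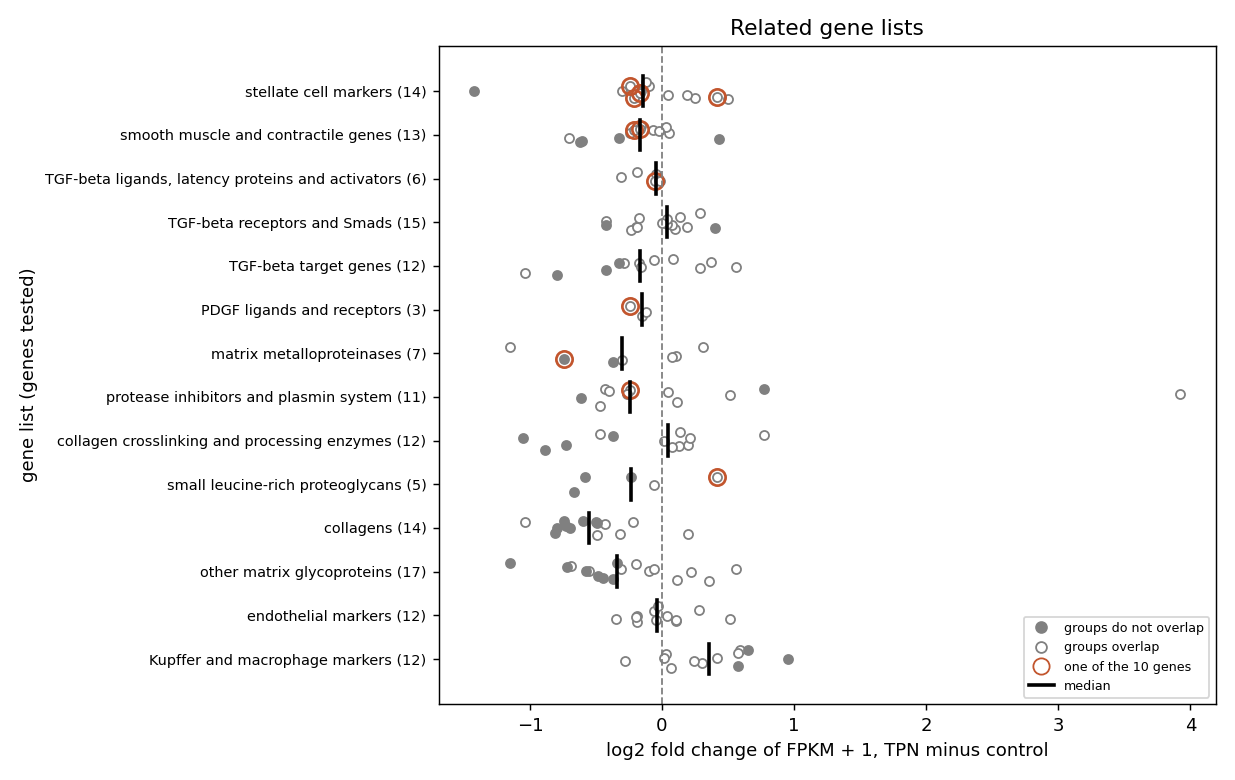
The log2 fold change of FPKM + 1, TPN minus control (x axis), of each tested gene in 14 related lists (y axis, with the number tested). Filled points have no overlap between groups, orange rings mark the 10 genes where they belong to a list, and black bars are medians, which run from -0.55 for collagens to 0.36 for Kupffer and macrophage genes.

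Genes of other cell types were read in the same livers, where 8.02% of all features tested were higher and 9.09% lower without overlap and 11.4% were under an unadjusted p of 0.05. Of 12 tested endothelial genes 7 were negative and 5 positive (median -0.038), with none past the adjusted or the unadjusted threshold and none without overlap. Of 12 tested Kupffer and macrophage genes 11 were positive (median 0.36) and 3 higher without overlap, with none past the adjusted threshold and 3 under an unadjusted p of 0.05. All 4 tested markers of portal fibroblasts and mesothelium were negative (median -0.66), and their list summed to 13.4 to 22.3 FPKM in the controls and 8.77 to 9.26 in the TPN rats. Of these, 2 were lower without overlap and under an unadjusted p of 0.05, and none passed the adjusted threshold. Both tested cholangiocyte markers, Epcam and Krt19, were lower without overlap (median -0.59) and under an unadjusted p of 0.05, and neither passed. The list summed to 11.8 to 15.5 FPKM in control and 7.15 to 9.05 in TPN. Epcam was the largest part of that sum in each rat, with means of 8.22 FPKM in control and 4.59 in TPN. The cholangiocyte genes under the filter overlapped between groups, with means lower in TPN except for Spp1 (0.864 and 1.01 FPKM). The sums of both lists moved in the direction of Mmp2 and Lox, and their part in that difference was not tested. Of 9 skeletal and cardiac muscle genes 0 reached the filter, 6 were listed at 0 in every library, and the list summed to at most 0.361 FPKM. Of 9 tested hepatocyte genes 5 were negative (median -0.098), with 1 lower without overlap, and of 20 acute-phase rows 18 were positive (median 0.91), with 2 higher and 1 lower without overlap and 0 past the threshold in both lists. At an unadjusted p under 0.05 there were 1 and 4 of these. Of 5 erythroid and 10 cell cycle genes tested, all had negative values, with medians of -2.48 and -1.43. In each list 4 passed limma's threshold, against 0.246% of all features tested. Lower without overlap were 5 and 8 of them, and as many were under an unadjusted p of 0.05.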

How the data were processed

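The members and gene lists were chosen with earlier results of these data known. Per the labels' protocols, RNA was taken from whole liver with TRIzol and made into Illumina libraries. Bowtie 0.12.2, Cufflinks and the build Rnor_6.0 are named in the submitters' processing notes, in a role not given in the sources used here, as are strandedness and the treatment of shared reads. The authors deposited 1 table of FPKM, with columns matched to samples by name. Of ratios between samples of values under 0.3 FPKM, at most 0.853% fell in 1 bin of 0.01 (log2), so whole reads could not be recovered.

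Features averaging 1 FPKM or more across the 6 samples were kept. The test was limma 3.58.1 (R 4.3.3, statmod 1.5.0) on log2(FPKM + 1), with trend and robust moderation and no covariate. Its 2-sided p-values were adjusted by Benjamini and Hochberg's method over all 11362 features and read at 0.05. On simulated data it called 38 of 100 features with a log2 change of 1 and 87 of 100 with a change of 2. Of its 132 calls 7 were unchanged features. The changes were placed only in more abundant features, at a level that Tagln alone of the 10 genes reached, so these rates do not cover the others. Noise was drawn separately for each feature, and changes smaller than 1 were not simulated. Nothing more says how the 3 samples of a group were obtained, so p-values measure the spread between these samples. With groups of 3 the smallest exact permutation p is 0.10, so none was used. Folds are ratios of mean FPKM. All 10 genes are named, with the 2 features most correlated with each gene. From 21 other lists, genes were named from among the 4 of smallest p. Not all of those 4 were named, and some lists had none named. The rest of the genes named were chosen after their values were seen. Of 287 listed symbols 272 matched the table directly and 3 through RefSeq's gene table (GRCr8). The other 12 are not reported here. Alternatives were other pseudocounts, filters, scalings and moderation, sample weights, the replicate number as a block, summed rows, an acute-phase covariate, and rats left out. Leaving out both rats numbered 3 was added after seeing the data. Figures used matplotlib 3.10.9.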

Additional observations from a re-analysis of the deposited data

How the results depend on the processing

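None of the 10 genes passed limma's adjusted threshold in any of 21 alternatives where it was tested. The alternatives gave 206 log2 fold changes of these genes, but not all of them came with a test. Des, Lum and Lox, under the filter, were tested in only 5, 2 and 3 alternatives. The direction of Mmp2, Lox, Lum, Pdgfrb and Dcn was the same in each alternative that gave them a value. It turned for Acta2 with sample weights (0.26), without control 2 (0.064) and without TPN 3 (0.17), and for Tagln with sample weights (0.17) and without TPN 3 (0.12). Des, at 0.0053, ran from -0.27 to 0.18. For Timp1 it turned with sample weights (0.039). For Tgfb1 it turned without control 2 (0.17), TPN 2 (0.033), TPN 3 (0.025), or control 2 and TPN 1 together (0.014). With 1 rat left out, the range was -0.54 to 0.17 for Acta2, -0.48 to 0.12 for Tagln and -0.22 to 0.17 for Tgfb1. The change of Lox moved to -1.54 and -1.75 with pseudocounts of 0.1 and 0.01. The members' median, -0.21 as reported, moved by less than the SD between rats (0.35) in all 21 alternatives. It ran from -0.37 to 0.025 with 1 rat left out and was -0.50 with the acute-phase covariate, which gave Dcn, Tgfb1, Pdgfrb and Timp1 values of 0.088, -0.45, -0.59 and -0.56.

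The count of features past limma's threshold, 28 as reported, was 18 and 5 with pseudocounts of 0.1 and 0.01. It was 6 with a minimum mean of 5 FPKM, 8 without trend and robust settings, 299 with sample weights and 1 with the acute-phase covariate. It was 0 with no filter (1898 at an unadjusted p under 0.05), after median-ratio scaling (1556) and after quantile normalisation (1593). With 1 rat left out it ran from 0 (1393 unadjusted, without TPN 3) to 46. It was 121 without control 2 and TPN 1, and 0 without both rats numbered 3 (806 unadjusted). The cause of these shifts was not tested. With the replicate block it was 58. Whether same-numbered rats were paired is not settled. Their deviations from the group means correlated at -0.21, -0.14 and 0.32, and only the rats numbered 3 correlated best with their own number. The effect of the block differed between genes. It changed the SE of Acta2 from 0.399 to 0.153, and that of Tgfb1 only from 0.239 to 0.231. Depth is unknown, so the precision of Des, Lum and Lox, all under 1 FPKM on average, cannot be given from counting.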

Other observations

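Pcolce, whose protein speeds the removal of the procollagen propeptide by Bmp1, was highest in the rats with the highest acute-phase sums of their groups. It measured 6.32, 57.4 and 6.68 FPKM in control 1, 2 and 3 and 82.2, 20.5 and 8.20 in TPN 1, 2 and 3. The acute-phase score was a mean of log2(FPKM + 1) over 19 rows, with A2m left out. It was 8.32, 9.83 and 8.52 in the controls and 10.6, 9.40 and 9.45 in the TPN rats. Over these 6 livers Pearson's r with that score was 0.90 for Pcolce, 0.30 for Timp1 and -0.54 for Mmp2, given as a description. Pcolce was singled out after its values were seen, and TPN minus control gave 0.77 on the log2 scale (SE 1.10, adjusted p = 0.850 by limma).

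The ratio of Dcn to Mmp2 within a liver, chosen after the values were seen, was 0.655, 1.11 and 0.790 in the controls and 2.87, 1.82 and 2.03 in the TPN rats, without overlap. The ratio of Timp1 to Dcn was 0.915, 0.936 and 1.16 in the controls and 0.623, 0.659 and 0.471 in the TPN rats. Neither depends on how the libraries were scaled by their total. Of the 45 pairs among the 10 genes 11 had ratios without overlap. Of these, 8 were among the 16 pairs that hold Mmp2 or Lox but not both, and 3 among the 29 others. Dcn to Mmp2 was the only one of those 8 with Mmp2, and the rest held Lox. The ratios of Mmp2 with genes other than Dcn and Lox overlapped. Timp1 to Mmp2, for example, was 0.599, 1.04 and 0.918 in the controls and 1.79, 1.20 and 0.957 in the TPN rats. Mmp2 and Lox were already without overlap by themselves, and the pairs share genes, so the count is not one of separate results. No share over pairs of other features was computed, and no test of these ratios was made.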
